A study of Mus musculus with 11 samples.

Results

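Angiocrine factors are growth factors and cytokines that endothelial cells release to act on the cells around a vessel. The 9 genes described here, *Pdgfa*, *Pdgfb*, *Tgfb1*, *Tgfb3*, *Fgf1*, *Bmp4*, *Bmp6*, *Kitl* and *Csf1*, encode such factors with receptors on osteoprogenitors or on blood cells. They were found by matching the Entrez gene identifiers of a count table of 27179 rows to the mouse symbols, and all 9 were present and passed the filter on low counts. The RNA came from CD31hi EMCNhi endothelial cells, sorted by the marker combination of type H capillaries, from the marrow of young adult BALB/c mice after CD45 and Ter119 positive cells had been gated out. In tumour-infiltrated marrow this gate can also take other vessels that carry both markers at a high level, so the met cells are named here by the gate alone. Tumour-burdened mice carried 4T1.2 cells, which derive from a BALB/c mammary carcinoma, metastasise to the skeleton and expressed a red fluorescent protein here. Their marrow was dissected under fluorescence into tumour-infiltrated areas, which gave 3 met libraries, and neighbouring areas free of fluorescent tumour, which gave 6 non-met libraries. Healthy mice without tumour gave 2 control libraries. Each library was made from a mouse pool of 1 or more animals. Non-met and met libraries of pools Burdened-2, Burdened-3 and Burdened-4 came from the same animals, and pools Burdened-1 and Burdened-2 each gave 2 non-met libraries, so the libraries were not all independent.

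Type H capillaries lie near the growth plate and the bone surface, where vessel growth and bone formation occur together. Platelet-derived growth factors recruit pericytes and mesenchymal progenitors to the vessel wall. Transforming growth factors beta and bone morphogenetic proteins signal through serine/threonine kinase receptors to Smad proteins and regulate the commitment of osteoprogenitors, and the fibroblast growth factor family acts on their growth. Kit ligand, also called stem cell factor, maintains haematopoietic stem cells in the perivascular niche, and colony stimulating factor 1 maintains macrophages and osteoclast precursors.

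Libraries held 19539761 and 5029771 counts in the controls, 733342 to 7683451 in non-met and 2547520 to 8771860 in met. Input RNA was low and was amplified, and a rare transcript can be present in one library and missing from the next. The sort markers were present throughout, with *Pecam1*, the gene of CD31, at 972 to 3162 CPM (counts scaled to 1000000 per library) and *Emcn* at 351 to 1361 CPM. *Pecam1* was higher in met than in control by 1.342 on the log2 scale (SE 0.015, adjusted P = 8.9e-27 by voomLmFit over all genes), and higher than in non-met by 0.89 (SE 0.13, adjusted P = 0.000455). Its levels were 1247 and 972 CPM in control and 2297, 2595 and 3162 CPM in met. Libraries of a group thus differed by more than the SE of 0.015, so that SE and its P do not measure the spread between libraries. The edgeR quasi-likelihood test, DESeq2 and limma-trend gave *Pecam1* log2 differences of 1.20 to 1.28 and 0.50 to 0.69 without a call (adjusted P 0.0546 to 0.413 and 0.563 to 0.911). *Emcn* was also higher in met vs control by voomLmFit, at 0.91 (SE 0.11, adjusted P = 1.7e-05), and did not pass in met vs non-met (0.5925). The 14 general endothelial markers summed to 15010 and 10355 CPM in control, 11247 to 18668 CPM in non-met and 15944 to 18128 CPM in met. Granulocyte markers, in a list of 15 genes, summed to 80.2 and 388 CPM in control, 398 to 5286 CPM in non-met and 35.6 to 203 CPM in met. Mitochondrial transcripts took 5.32% and 6.20% of counts in control, 7.09% to 19.8% in non-met and 4.17% to 9.41% in met. The part of either in the values below was not tested.

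Per length of transcript, *Tgfb1* had the highest level of the 9, with a mean of 6.90 log2 RPKM (CPM per kilobase of transcript) over the 11 libraries. *Pdgfb* followed at 5.82, *Kitl* at 4.61, *Csf1* at 3.08 and *Pdgfa* at 2.51 log2 RPKM. *Bmp6* (0.47), *Bmp4* (-0.41), *Tgfb3* (-0.55) and *Fgf1* (-0.70) were the lowest on this scale, and with a prior count of 0.5 *Bmp4* (-1.71) lay below *Tgfb3* (-1.26) and *Fgf1* (-1.45). No neighbouring pair in this order passed 0.05 after adjustment over the 8 pairs (exact sign-flip test within libraries, n = 11, lowest adjusted P = 0.0885). *Tgfb1*, *Pdgfb* and *Kitl* together made up 74.3% to 98.2% of the summed CPM of the 9 genes in a library. In the controls alone *Bmp4* was above *Bmp6*, *Csf1* and *Tgfb3*, at 5.30 ± 0.15 log2 RPKM (SD, n = 2), whereas it had the lowest mean of the 9 in met at -0.80 ± 2.91 (n = 3) and the lowest but *Tgfb3* in non-met at -2.12 ± 0.89 (n = 6).

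**Figure D1:**
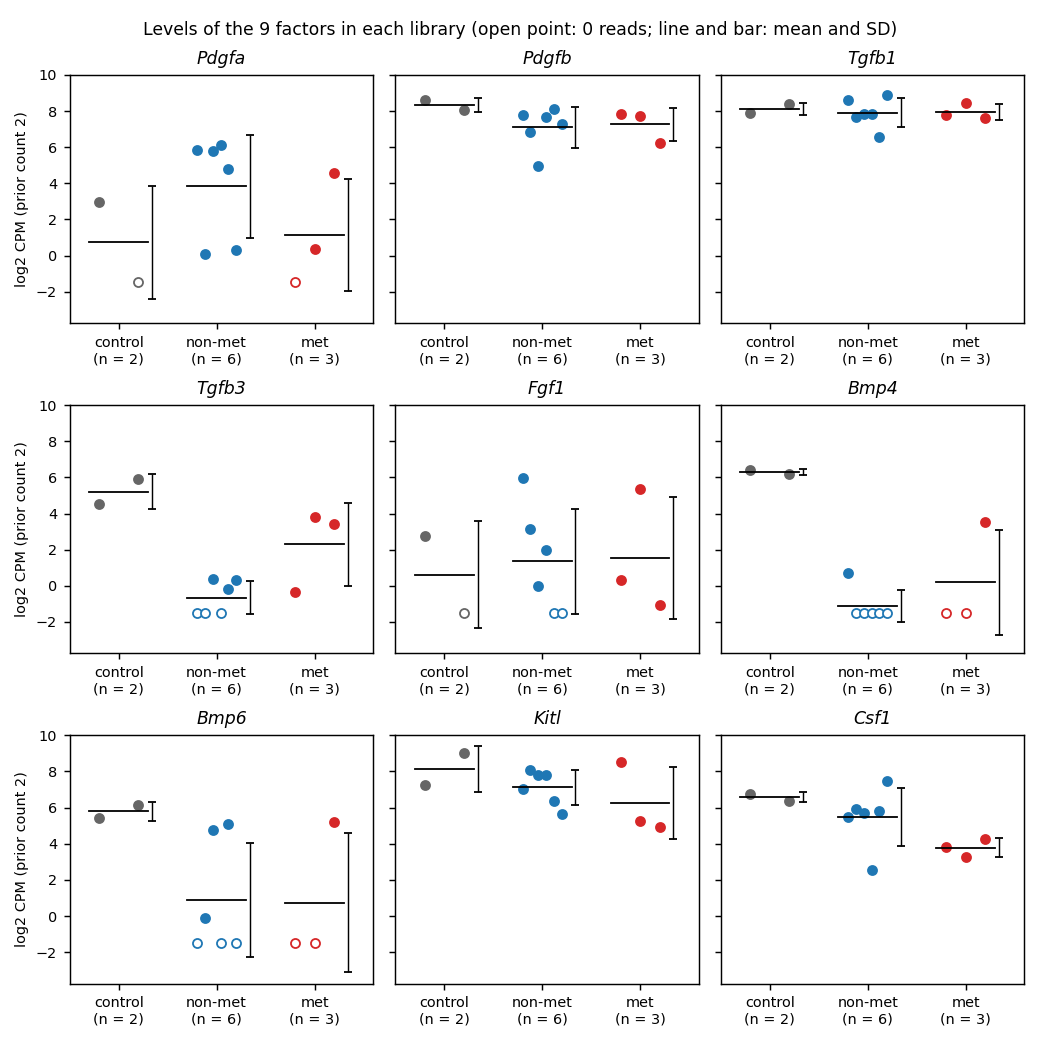
Level of each factor in each library, as log2 CPM after TMM scaling with a prior count of 2, by group. Filled points are libraries with reads and open points are libraries with 0 reads. Lines and bars give the mean and SD. *Tgfb1* stayed between 95.4 and 471 CPM in every library, whereas *Bmp4* had 0 reads in 7 of 11 libraries and 72.4 CPM or more in both controls.

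The question put to each gene was whether its level differed between endothelium in the tumour, endothelium beside it and endothelium of healthy bone. A single voomLmFit model of all libraries was used, with P values adjusted over the 11949 genes tested and a threshold of 0.05. Met vs non-met called 0 of the 9 factors, where 0.418% of all genes were called, and 0 of the 9 had an unadjusted P under 0.05, where 7.24% of all genes did. In met vs control 3 of the 9 had such a P and in non-met vs control 5, where 14.1% and 17% of all genes did. The edgeR quasi-likelihood test and limma-trend also called 0, as did DESeq2, which gave *Bmp4* no P in any comparison. Met vs control called 1 factor, *Bmp4*, which was lower (1.2% of all genes were called, 0.511% as lower). Non-met vs control called 2, *Bmp4* and *Tgfb3*, both lower (0.636% of all genes were called, 0.452% as lower). The direction of all calls in non-met vs control turned with the tool, with 22 genes higher and 54 lower by voomLmFit, 262 and 4 by DESeq2, 11 and 3 by the quasi-likelihood test and 6 and 2 by limma-trend. Those other tools called 0 factors in both comparisons with control. The 2 control libraries served in both comparisons, so these are not independent of each other. The median log2 fold change of the 9 was -0.04 in met vs non-met, -2.0 in met vs control and -1.07 in non-met vs control, against 0.08, -0.09 and -0.33 over all genes tested. In bulk RNA, fewer cells of a type that makes a factor and less RNA per cell cannot be told apart.

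**Figure D2:**
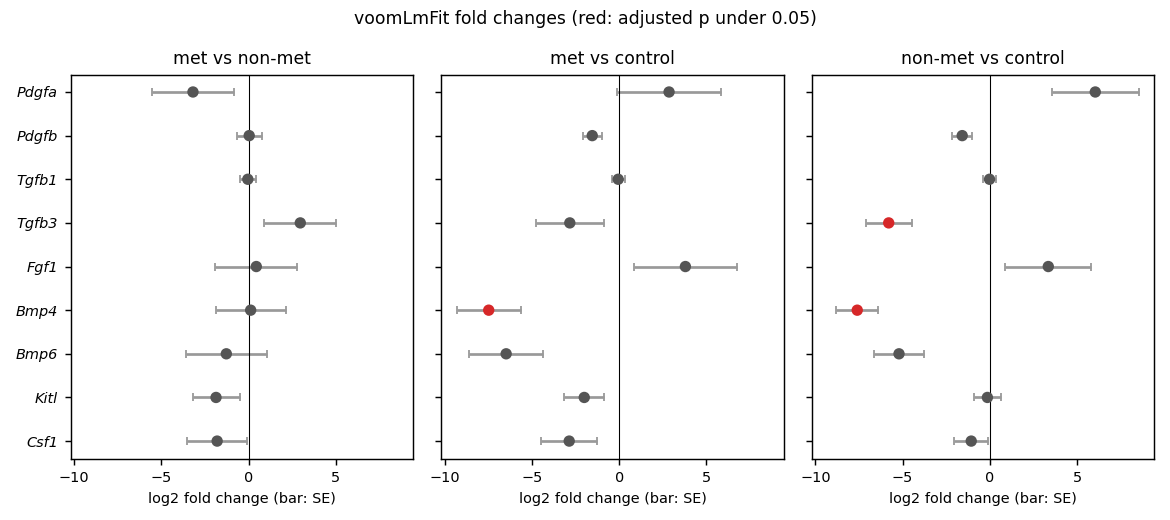
Log2 fold change of each factor in the 3 comparisons, from voomLmFit on all 11 libraries. Bars give the SE, and red marks an adjusted P under 0.05. *Bmp4* lies at -7.48 in met vs control and -7.60 in non-met vs control, and *Tgfb3* at -5.80 in non-met vs control. All the met vs non-met points are unmarked.

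Of the BMP ligands, *Bmp4* (chr14:46383525-46390669, GRCm38.p6), a potent inducer of osteogenic commitment, had 83.9 CPM in control 1 and 72.4 CPM in control 2, from 1717 and 409 reads. It had 0 CPM in non-met libraries 2 to 6 and 1.26 CPM, from 7 reads, in non-met 1. Among the met libraries it had 0 CPM in met 1 and met 2 and 11.4 CPM, from 99 reads, in met 3. Both controls therefore lay above every tumour-burdened library, a pattern seen (lower, without overlap) in 12.3% of all genes for met vs control and in 5.03% for non-met vs control. *Bmp4* was lower by voomLmFit in non-met vs control, with a log2 fold change of -7.60 (SE 1.21) and an adjusted P of 0.00139, and in met vs control, at -7.48 (SE 1.82) with an adjusted P of 0.0411. From pooled reads the rate in control was 224 times that in non-met (95% interval 108 to 557, counting error only) and 13.4 times that in met (10.9 to 16.5), whose reads all came from met 3. The fitted size in met vs control varied with the tool, at -4.35 with the quasi-likelihood test, -4.48 with DESeq2 and -6.10 with limma-trend. Met vs non-met was at 0.12 by voomLmFit (SE 2.02, adjusted P = 0.996) and at 3.80, 3.46 and 1.32 with those 3 tools. The exact permutation test gave P = 0.0357 for non-met vs control, the smallest that 28 splits allow, and 0.321 after adjustment over the 27 comparisons made. The same exact permutation test gave P = 0.2 for met vs control, where 10 splits allow no P under 0.1. The call in non-met vs control held without any one library (adjusted P 0.000115 to 0.0179), but not among the libraries over 2000000 counts (0.139) or with a term for library sets (0.237), where the log2 differences were -8.38 (SE 2.28) and -7.69 (SE 2.76). Those sets are the controls and non-met 1 and 2, with under 5 CPM of summed *Krt8*, *Krt18* and *Krt19*, and the other 7 libraries, with 9.98 to 90.0 CPM. The call in met vs control was lost in both (0.0888 and 0.547, at -7.41 and -7.64) and with libraries of 1 pool and group summed (0.146). It held without non-met 4 (0.0492) and was lost without any other burdened library. Without met 1, 2 or 3 the adjusted P was 0.136, 0.190 and 0.0676, at log2 differences of -6.81, -6.82 and -8.92. Without non-met 1, 2, 3, 5 or 6 it was 0.0742, 0.0529, 0.0524, 0.0761 and 0.0602, at log2 differences of -7.43 to -7.46. Without control 1 or control 2, which leaves 1 control, the log2 difference was -7.48 and -7.74. A pair of annotated lncRNAs, Gm15217 and Gm15222, overlap *Bmp4*, and strand use in the counting is not given in the sources used here.

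*Bmp6* (chr13:38345716-38500314), an osteogenic ligand that also takes part in the regulation of iron, had 42.1 and 71.7 CPM in the controls. In non-met the lowest, median and highest values were 0, 0.290 and 33.9 CPM, and met 1, 2 and 3 had 0, 0 and 36.7 CPM. The controls lay above all others, but non-met 3, non-met 5 and met 3 held 26.8 to 36.7 CPM while the other 6 burdened libraries were below 1 CPM. The differences from control did not pass the test, at -5.21 on the log2 scale in non-met (SE 1.44, adjusted P = 0.0829) and -6.48 in met (SE 2.13, adjusted P = 0.126) by voomLmFit. These sizes varied with the tool, at -2.47 and -2.21 with the quasi-likelihood test, -2.44 and -2.37 with DESeq2 and -4.90 and -5.04 with limma-trend. By voomLmFit met vs control was -5.525, -5.75 and -8.33 without met 1, 2 or 3. With the term for library sets non-met and met were at -7.97 and -9.81 from control. Pooled reads gave a rate in control 6.05 times that in non-met (95% interval 5.12 to 7.20, counting error only) and 2.46 times that in met (2.18 to 2.79), whose reads all came from met 3. These intervals treat reads as independent and leave out the spread between libraries. By exact permutation non-met vs control gave P = 0.0357, the smallest possible, and 0.321 after adjustment. With a prior count of 0.5 in place of 2 that exact permutation P was 0.143. Txndc5 and a lncRNA overlap its annotation.

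The start regions of *Bmp4*, *Bmp6* and *Csf1* are shown because these 3 were without overlap below control in met and have entries in the RefSeq promoter table (GRCm38.p6), which held 6 of the 9 factors. Each line gives the 250 bases before the annotated start, 5′ to 3′ on the strand of the gene. Capitals mark the GC box GGGCGG (or its reverse complement CCGCCC) and the E-box CACGTG, which is its own reverse complement. *Bmp4* is chr14:46390670-46390919 on the minus strand, *Bmp6* chr13:38345466-38345715 on the plus strand and *Csf1* chr3:107760470-107760719 on the minus strand.
Bmp4: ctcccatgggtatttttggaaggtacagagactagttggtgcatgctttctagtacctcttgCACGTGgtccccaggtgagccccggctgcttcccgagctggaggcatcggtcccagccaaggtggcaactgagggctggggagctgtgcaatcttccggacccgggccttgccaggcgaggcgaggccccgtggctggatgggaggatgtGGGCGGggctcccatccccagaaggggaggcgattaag
Bmp6: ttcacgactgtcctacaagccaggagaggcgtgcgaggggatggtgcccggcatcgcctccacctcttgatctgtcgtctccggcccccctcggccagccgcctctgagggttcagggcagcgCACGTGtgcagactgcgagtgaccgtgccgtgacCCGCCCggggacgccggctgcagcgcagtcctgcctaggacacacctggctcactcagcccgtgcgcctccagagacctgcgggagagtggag
Csf1: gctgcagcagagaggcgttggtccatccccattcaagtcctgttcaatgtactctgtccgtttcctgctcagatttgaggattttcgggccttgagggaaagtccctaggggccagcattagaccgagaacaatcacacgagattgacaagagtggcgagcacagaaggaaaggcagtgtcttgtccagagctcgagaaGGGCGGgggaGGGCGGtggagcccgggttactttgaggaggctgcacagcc
*Bmp4* and *Bmp6* each held 1 GC box and 1 E-box, and *Csf1* held 2 GC boxes and 0 E-boxes. Among 32851 such windows 32.7% held a GC box and 6.02% an E-box within the same 250 bases. CCAAT (or ATTGG, in 33.8% of windows) and TATAAA (or TTTATA, 12.4%) were found in 0 of these 3. A match describes letters in a window and no binding was measured.

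Of the TGF-beta ligands, *Tgfb3* (chr12:86056743-86079041) had 22.6 and 58.7 CPM in the controls. In non-met it had at most 3 reads in any library, with a lowest, median and highest level of 0, 0.265 and 0.933 CPM, while met 1, 2 and 3 had 0.440, 13.5 and 10.2 CPM. The controls lay above every burdened library, and met 2 and met 3 lay above every non-met library. In the shallowest of the non-met libraries 3 reads correspond to 5.43 CPM, which is below the lower control. *Tgfb3* was lower in non-met vs control by voomLmFit, at -5.80 on the log2 scale (SE 1.32) and an adjusted P of 0.0379. Pooled reads gave a rate in control 117 times that in non-met (95% interval 49.9 to 361, counting error only), from 794 and 5 reads. The call held without met 1, 2 or 3 (adjusted P 0.0347 to 0.0401). It was lost without non-met 1 or 6 (0.067 each), 2 (0.0772), 3 (0.0622), 4 (0.0783) or 5 (0.0748), at log2 differences of -5.435 to -6.21. Without control 1 or control 2, which leaves 1 control, the log2 difference was -6.43 and -5.045. The call was also lost among the libraries over 2000000 counts (0.199), with the term for library sets (0.199), at log2 differences of -7.24 (SE 2.34) and -8.73 (SE 2.57), and with libraries of 1 pool and group summed (0.207, at -5.945). For met vs non-met the difference in mean log2 CPM was 2.95, with an exact permutation P of 0.0476 that became 0.321 over the 27 comparisons, and voomLmFit gave 2.97 (SE 2.06, adjusted P = 0.773). For met vs control voomLmFit gave -2.83 (SE 1.95, adjusted P = 0.561), which was -1.55 without met 1 and -4.54 without met 2. Met vs non-met was 4.28 without met 1, 1.24 without met 2 and 1.5 without met 3, and 4.28 and 4.10 with the quasi-likelihood test and DESeq2.

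*Tgfb1* (chr7:25687002-25705077), the isoform stored in bone matrix and released on resorption, was detected at high levels in every library. It had 238 and 329 CPM in control and 220.2, 354 and 197 CPM in met, and non-met ran from 95.4 through a median of 229 to 471 CPM. The highest and the lowest library were both non-met, and all groups overlapped. The log2 fold changes were -0.04 (SE 0.48) in met vs non-met, -0.06 (SE 0.38) in met vs control and -0.02 (SE 0.38) in non-met vs control, with adjusted P of at least 0.954 in voomLmFit.

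Of the PDGF ligands, *Pdgfb* (chr15:79995865-80024614), the endothelial signal that holds pericytes to capillaries, had 395 and 267 CPM in control and 228, 212 and 74.1 CPM in met. Non-met ranged from 30.8 CPM (non-met 3) through a median of 179.5 to 275 CPM (non-met 5). Met lay below control without overlap, and non-met overlapped control through non-met 5 alone. On the log2 scale the difference was -1.54 (SE 0.54, adjusted P = 0.151) in met vs control and -1.58 (SE 0.56, adjusted P = 0.153) in non-met vs control, and neither passed. The quasi-likelihood test and DESeq2 gave -0.95 and -1.0 in met vs control and -0.99 and -0.84 in non-met vs control, and without met 3 met vs control was at -0.75. Met vs non-met gave 0.04 (SE 0.73, adjusted P = 0.996).

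*Pdgfa* (chr5:138976014-139000792), the ligand of PDGF receptor alpha on mesenchymal progenitors, varied widely within groups. Control 1 and control 2 had 7.33 and 0 CPM, and met 1, 2 and 3 had 0, 0.947 and 23.1 CPM. Non-met had a lowest, median and highest level of 0.726, 41.0 and 68.7 CPM, with 4 libraries at 27.6 CPM or more and both libraries of pool Burdened-2 under 1 CPM. The groups overlapped in every comparison. Non-met vs control was at 6.04 on the log2 scale (SE 2.50, adjusted P = 0.225) and met vs control at 2.86 (SE 2.995, adjusted P = 0.731) by voomLmFit, and met vs non-met gave -3.18 (SE 2.38, adjusted P = 0.785), which was -1.62 without met 1 and -5.11 without met 3. Without control 2, which had 0 reads, non-met vs control fell to 0.76 and met vs control turned to -2.49. The quasi-likelihood test, DESeq2 and limma-trend gave 3.24, 3.42 and 3.10 in non-met vs control and 1.12, 1.105 and 0.42 in met vs control.

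*Fgf1* (on chromosome 18), a mitogen for many mesenchymal cells, was carried by few libraries. It had 6.31 and 0 CPM in control and 0.881, 40.9 and 0.115 CPM in met. Non-met had 0, 2.12 and 61.4 CPM as lowest, median and highest level. Non-met 1 and met 2 stood above the rest and 3 of 11 libraries had 0 reads. Log2 fold changes were 0.45 (SE 2.36) in met vs non-met, 3.795 (SE 2.95) in met vs control and 3.35 (SE 2.47) in non-met vs control, with adjusted P of at least 0.449. The quasi-likelihood test, DESeq2 and limma-trend gave 2.14, 2.14 and 0.91 in met vs control and 1.965, 2.13 and 0.72 in non-met vs control. With the term for library sets these were 8.12 and 6.82. Without control 2 both differences from control turned, to -1.22 in met and -1.83 in non-met. A larger gene, Arhgap26, overlaps it.

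*Kitl* (chr10:100015615-100100416), the niche factor for haematopoietic stem cells, had 151 and 521 CPM in control and 366, 38.1 and 29.7 CPM in met. Non-met ranged from 48.9 through a median of 175 to 275 CPM. Met 1 was the second highest of the 11 libraries and met 2 and met 3 were the lowest, so all groups overlapped. The log2 difference was -1.86 (SE 1.35, adjusted P = 0.78) in met vs non-met, -2.0 (SE 1.13, adjusted P = 0.458) in met vs control and -0.14 (SE 0.77, adjusted P = 0.914) in non-met vs control by voomLmFit. The other 3 tools gave -1.02 to -1.06 in non-met vs control, where the value was -1.70 without control 1 and 0.088 without control 2. Met vs non-met was -0.18, -0.25 and -0.89 with the quasi-likelihood test, DESeq2 and limma-trend and -0.80 without met 3. Met vs control ran from -0.90 without met 3 to -3.44 without control 1 (adjusted P = 0.0508 by voomLmFit).

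*Csf1* (chr3:107741048-107760469), the growth factor of macrophages and osteoclast precursors, was low in all 3 met libraries, with 13.7, 9.1 and 19.2 CPM. Control had 108 and 83.0 CPM, and non-met ran from 5.43 CPM (non-met 4, from 3 reads) through a median of 53.9 to 179 CPM (non-met 6). Met lay below control without overlap and below 5 of the 6 non-met libraries. The exact permutation P for met vs control was 0.1, the smallest of 10 splits. By voomLmFit the log2 difference was -2.86 (SE 1.59, adjusted P = 0.447) in met vs control, -1.80 (SE 1.72, adjusted P = 0.834) in met vs non-met and -1.07 (SE 0.98, adjusted P = 0.531) in non-met vs control, where the quasi-likelihood test and DESeq2 gave -0.53 and -0.42. The lncRNA Gm40121 spans the gene.

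In all, 5 factors (*Pdgfb*, *Tgfb3*, *Bmp4*, *Bmp6* and *Csf1*) lay lower in met than in control without overlap, where 12.3% of all genes did, and 3 (*Tgfb3*, *Bmp4* and *Bmp6*) lay lower in non-met than in control, where 5.03% did. No factor lay higher than control without overlap, against 8.43% and 1.26% of genes. Between met and non-met 0 factors were without overlap in either direction, where 1.98% of genes were.

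The pools allowed met and non-met marrow of the same animals to be compared, with 3 pairs, for which no exact sign-flip P can fall below 0.25. *Tgfb3* was higher in met in Burdened-3 and Burdened-4, with differences in log2 CPM of 3.42 and 4.89. In Burdened-2 it had 0.440 CPM in met and 0 and 0.888 CPM in the non-met libraries, from at most 1 read each, so that its difference of 0.26 gives no direction. *Pdgfa* was lower in met in 3 of 3 pools, by a mean log2 difference of -2.88 ± 2.17 (SD, n = 3), and in Burdened-2 this rested on 0 reads in met and on 5 and 1 in non-met. *Tgfb1* differed by -0.03 ± 0.59 (SD, n = 3). *Bmp6* moved by -6.25 in Burdened-3 and 6.70 in Burdened-4, and *Csf1*, *Kitl*, *Pdgfb* and *Fgf1* also differed in sign between pools. Non-met libraries of 1 pool could differ as widely. In Burdened-1 *Bmp6* had 0 and 33.9 CPM and *Fgf1* had 61.4 and 0 CPM, and in Burdened-2 *Kitl* had 275 and 48.9 CPM.

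**Figure D3:**
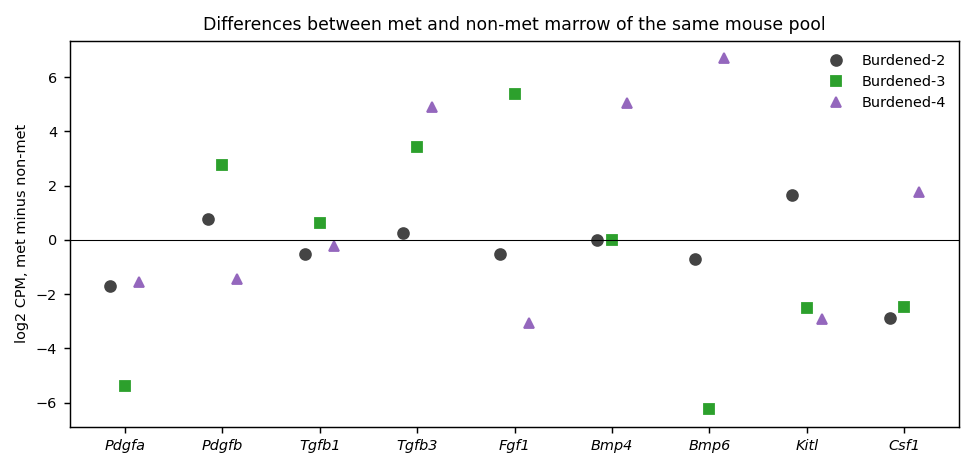
Met minus non-met difference in log2 CPM (prior count 2) within each of the 3 mouse pools that gave both, with the mean of 2 non-met libraries for Burdened-2. Each point is 1 pool. For *Tgfb3* the points of Burdened-3 and Burdened-4 lie at 3.42 and 4.89 and that of Burdened-2, from at most 1 read a library, at 0.26. All 3 *Pdgfa* points lie below 0.

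Markers of marrow stroma were read beside *Kitl* and the 5 factors that lay lower in met than in control without overlap. The list of 17 stromal, mural and osteolineage genes summed to 4412 and 11426 CPM in the controls, 1409 to 4604 CPM (median 1550.0) in non-met and 3285, 548 and 1311 CPM in met. *Cxcl12* alone made up 36.4% to 76.3% of this sum in a library. Without it the sums were 1188 and 2707 CPM in control, 323, 632 and 1484 CPM in met and 454 to 2001 CPM in non-met, and non-met 5 and met 1 lay above control 1. Of the 16 genes tested 1, *Cxcl12*, was called by voomLmFit against control. In met 5 of the 16 lay lower than control without overlap, where 12.3% of all genes did, and in non-met 4, where 5.03% did. Their median log2 fold change was -1.01 in met vs control and -1.28 in non-met vs control, against -0.09 and -0.33 over all genes, with 5 and 6 of the 16 above 0. In this list *Bglap* had 0 reads in every library, and *Sp7* had reads only in control 1 (100) and non-met 6 (22). *Lepr* had 246 and 979 CPM in control and 0.622 to 221 CPM in the burdened libraries. *Adipoq* had 135 and 453 CPM in control and 0 to 67.5 CPM in the burdened libraries. *Ibsp* had 27.9 and 0 CPM in control and 0 to 298 CPM in the burdened libraries. Control 2, with the highest stromal sum, also had the highest *Kitl*, *Tgfb3* and *Bmp6*, whereas *Bmp4*, *Csf1* and *Pdgfb* were higher in control 1. Non-met 5 had a stromal sum of 4604 CPM, above control 1, with 0 reads of *Bmp4* and 1 read of *Tgfb3*. Over all 11 libraries Pearson's r of log2 levels with the stromal sum was 0.54 for *Bmp4*, 0.32 for *Tgfb3*, 0.65 for *Bmp6*, 0.62 for *Kitl*, 0.49 for *Csf1* and 0.29 for *Pdgfb*. Over the 9 burdened libraries it was -0.20, -0.50, 0.43, 0.47, 0.33 and 0.0022 in that order, as a description of points that share pools. *Bmp4* had 0 reads in 7 of those 9. The 15 monocyte and macrophage markers summed to 3548 and 3800 CPM in control, 1687 to 2600 CPM in non-met and 1238 to 2617 CPM in met. In both controls 7 of the 15 (*Csf1r*, *Adgre1*, *Ccr2*, *C1qa*, *C1qb*, *C1qc* and *Fcgr1*) had 0 reads. This sum is therefore not a measure of macrophage content. The 16 mammary epithelial and tumour markers summed to 17.5 and 62.1 CPM in control, 24.5 to 182 CPM in non-met and 161, 129 and 32.9 CPM in met. Of the 8 of them tested 0 were called by voomLmFit, and 6 lay higher in met than in control without overlap, where 8.43% of all genes did. The 10 megakaryocyte and platelet markers summed to 0 and 31.3 CPM in control, 0 to 57.7 CPM in non-met and 42.6 to 123 CPM in met, where *Ppbp*, *Gp9* and *Gp5* had 0 reads. Of the 3 tested *Itga2b*, an integrin subunit of platelets, was called higher in met vs control by voomLmFit (adjusted P = 0.0406) and not by the quasi-likelihood test (0.886) or limma-trend (0.702), and DESeq2 gave it no adjusted P. B cell markers summed to at most 120.5 CPM and red cell markers to at most 125 CPM in any library. The part of these cells in the factor levels was not tested.

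**Figure D4:**
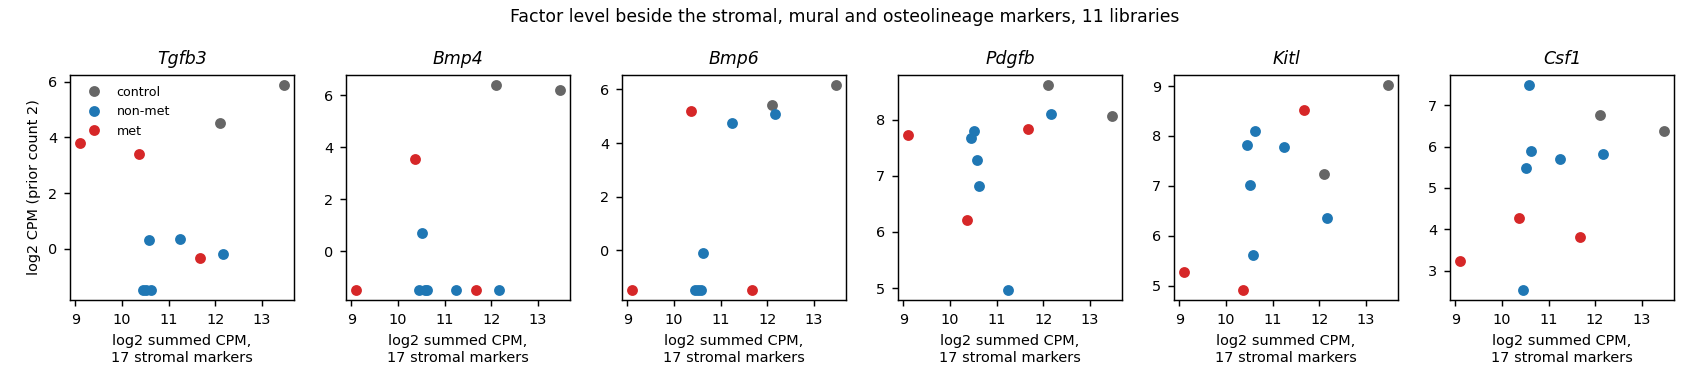
Log2 CPM of *Tgfb3*, *Bmp4*, *Bmp6*, *Pdgfb*, *Kitl* and *Csf1* against the log2 summed CPM of 17 stromal, mural and osteolineage markers, 1 point per library and coloured by group. Control 2 lies farthest to the right, and for *Bmp4* 7 of the 9 burdened libraries lie at the level of 0 reads, with met 3 at 3.55 and non-met 1 at 0.69 log2 CPM.

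Of the other genes of these pathways, *Eng*, *Il34* and *Cxcl12* passed the voomLmFit test in a comparison. Among 16 receptors tested, *Eng*, the endothelial co-receptor for TGF-beta and BMP9, was higher in met vs non-met by 0.77 on the log2 scale (SE 0.15, adjusted P = 0.0118) and lower in non-met vs control (-0.80, SE 0.14, adjusted P = 0.00603). Its levels were 2145 and 1337 CPM in control, 1667, 1807 and 2121 CPM in met and 1164 to 2143 CPM in non-met, so the groups overlapped. *Tgfbr2* was at 135 to 1068 CPM and did not pass. By the edgeR quasi-likelihood test, DESeq2 and limma-trend *Eng* did not pass (adjusted P of at least 0.911). Its log2 differences with these tools were 0.38, 0.23 and 0.41 in met vs non-met and -0.28, -0.20 and -0.28 in non-met vs control. The receptors for the PDGF ligands, *Kitl* and *Csf1* were named after their values were seen. Their highest levels were 181 CPM for *Pdgfra* (control 2), 318 CPM for *Pdgfrb* (non-met 5), 347 CPM for *Kit* (met 1) and 69.5 CPM for *Csf1r* (non-met 2), and *Csf1r* had 0 reads in both controls.

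Among 8 other ligands tested of 22, *Il34*, the second ligand of the CSF1 receptor, had 10.8 and 90.6 CPM in control, 0 reads in all 6 non-met libraries and at most 2 reads in met. It was lower in non-met vs control by voomLmFit (adjusted P = 0.0462) but not by the other 3 tools (0.141 to 0.648). *Pdgfd*, a PDGF ligand named after its values were seen, had 0 reads in both controls, 55.1, 16.9 and 78.4 CPM in met and 0 to 59.5 CPM in non-met, with 3 of 6 at 0. DESeq2 called it higher in met vs control (adjusted P = 0.00989) and in non-met vs control (0.00704), and the other 3 tools did not, with 0.0728 and 0.252 by voomLmFit, 0.886 and 0.860 by the quasi-likelihood test and 0.978 and 0.936 by limma-trend. *Inhbb*, the activin beta B subunit, had the highest mean log2 CPM of this list over the 11 libraries, with 118.7 ± 52.8 CPM in control (SD, n = 2), 375 ± 195 in non-met (n = 6) and 567.8 ± 168 in met (n = 3), and its log2 fold change of 2.03 in met vs control did not pass (adjusted P = 0.0728). *Bmp1*, a procollagen protease, was at 125 ± 69.2, 99.96 ± 70.3 and 124 ± 35.0 CPM in the same order.

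Among 13 other endothelial or niche factors tested, *Cxcl12*, the chemokine that retains haematopoietic stem cells, was lower than control in met (log2 fold change -4.07, SE 0.35, adjusted P = 2.27e-08 by voomLmFit) and in non-met (-3.12, SE 0.22, adjusted P = 1.69e-09). It had 3224 and 8720 CPM in the controls, 555 to 2603 CPM in non-met and 1801, 225 and 679 CPM in met, without overlap. The quasi-likelihood test called it in both comparisons (adjusted P = 0.000176 and 4.33e-05), limma-trend in met vs control (0.0167) but not in non-met vs control (0.121), and DESeq2 in neither (0.124 and 0.281). These 3 tools, in that order, gave smaller log2 differences, of -2.73, -3.025 and -2.83 in met vs control and -2.22, -2.25 and -2.19 in non-met vs control. *Cxcl12* also stands in the stromal list. *Dll1*, a Notch ligand, was at 59.6 ± 23.7, 203 ± 111 and 347 ± 187 CPM in control, non-met and met.

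By voomLmFit 0 of 20 binders, proteases and inhibitors tested and 0 of 20 downstream targets passed in any comparison. At an unadjusted P under 0.05 there were 0, 3 and 7 binders and 0, 3 and 4 targets in met vs non-met, met vs control and non-met vs control, where 7.24%, 14.1% and 17% of all genes were below it. Limma-trend and the quasi-likelihood test also called 0 of either, and DESeq2 called 1 binder in each comparison, *Chrdl1* in met vs non-met and met vs control and *Ltbp2* in non-met vs control, both named after their values were seen, and 0 targets. *Mmp14*, a membrane protease, had 289 ± 101 CPM in control, 577 ± 237 in non-met and 629 ± 102 in met, with an adjusted P of 0.0573 in met vs control. *Ltbp4*, which anchors latent TGF-beta, was at 195.9 ± 9.83, 261 ± 110 and 274 ± 232 CPM. The BMP target genes *Id1* (557 ± 136, 596 ± 257 and 502 ± 119 CPM) and *Id3* (499 ± 74.3, 648 ± 264 and 405 ± 236 CPM) were high in all groups, and neither passed. The targets had a median log2 fold change of -0.28 in met vs control and -0.98 in non-met vs control, against -0.09 and -0.33 over all genes.

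The genes most like each factor over the 11 libraries were sought among 9515 tested genes with a mean of at least 10 CPM, by Pearson's r of log2 CPM. *Vps45* was closest to *Fgf1* (r = 0.98), *Soat1* to *Pdgfa* (0.96), *Gpc6* to *Tgfb3* (0.95), *Lpar6* to *Pdgfb* (0.94) and *Inka1* to *Bmp6* (0.94). *Babam2* was closest to *Csf1* (0.91), *Eef1g* to *Tgfb1* (0.91), *E2f6* to *Bmp4* (0.91) and *Tpst1* to *Kitl* (0.91). The next in each case were *C1galt1c1*, *Abhd17c*, *Vmac*, *Arhgap18*, *Zfp952*, *Slf1*, *Gsdmd*, *Erg28* and *Dnajb1*, in the same order of factors. Leaving out the 2 libraries farthest from the median of the factor gave r between 0.72 and 0.96. Each such gene is the best of many, and libraries of 1 pool share animals.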

How the data were processed

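Sorted CD31hi EMCNhi cells were profiled by RNA sequencing from very little input, in 11 libraries whose groups and mouse pools follow the labels. The authors used Rsubread to align reads (mm10) and featureCounts to assign them to Entrez genes. The deposited values are raw counts per gene, and the single-library tables equalled the series table in 11 of 11. Symbols came from RefSeq GRCm38.p6 (25275 rows) and GENCODE (18). Rows that matched no symbol (1886), ribosomal RNA (35) and predicted genes (1794), 1.94% to 15.7% of a library's counts, were left out. The filter filterByExpr (minimum count 10, minimum total 15) kept 11949 genes.

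Following the authors' methods, filterByExpr and voomLmFit with sample weights (0.43 to 1.96) were used (edgeR 4.0.16, limma 3.58.1, R 4.3.3) at a false discovery rate threshold of 0.05. TMM scaling, 1 model of all 3 groups and Benjamini-Hochberg adjustment were chosen here. Its scripts were tested on simulated data, where the fitted fold changes followed the simulated ones but most genes voomLmFit called had not been changed, so the calls of factors and of pathway genes are given beside those of other tools. Library levels used CPM, or log2 CPM and RPKM with a prior count of 2. Single differences used exact two-sided tests. The members and all gene lists were chosen with earlier results of these data known. Named genes were the members, the sort markers, the called genes (at most 5 per list and comparison) and 2 most abundant of each pathway list, and 2 most similar genes per member. Met and non-met libraries of a pool share animals, which is where the pairing comes from, and their deviations from the group means correlated across genes by -0.02 to 0.02 (Spearman). Since 2 pools gave 2 non-met libraries each, P values measure the spread between libraries, which is partly within animals. Alternatives were DESeq2 1.42.0, the edgeR quasi-likelihood test, limma-trend, no sample weights, RLE or library size scaling, no filter, a pool block, summed pools, each library left out and, chosen after seeing the data, 3 restrictions by depth or keratin transcripts.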

Additional observations from a re-analysis of the deposited data

Results flagged for a closer look

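*Bmp4* in non-met 1 stood apart from the other 5 non-met libraries, at a log2 CPM of 0.69 where those all had 0 reads. The stromal, mural and osteolineage markers summed to 4604 CPM in non-met 5, far above the other non-met libraries. The B cell markers summed to 120.5 CPM in non-met 2. These are 3 of 20 sets of values examined, each over the 6 non-met libraries, by the gap to the nearest library as a share of the range. With 5 libraries tied at 0 reads, any reads in the remaining one give a share of 1. The *Bmp4* flag was therefore fixed in advance and tests nothing. A rate of about 1 in 20 by chance does not hold for such tied values.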

How the results depend on the processing

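Of the factor calls, only *Bmp4* lower in non-met vs control held whichever library was left out, and every call was lost with the edgeR quasi-likelihood test, limma-trend, libraries over 2000000 counts only and a term for 2 library sets that differ in keratin transcripts, with fitted differences from -4.35 to -8.73. DESeq2 lost the *Tgfb3* call and gave *Bmp4* no P in any comparison. The cause was not tested. Depth limits the low genes, since 3 reads are 0.147 CPM in control 1 and 5.43 CPM in non-met 4. With a prior count of 0.5 *Bmp4* became the lowest factor per length, 0 neighbouring pairs passed as before, 0 factors had an exact permutation P under 0.05 in met vs non-met, and 2 in place of 3 had one in non-met vs control.

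Genes called in met vs non-met, met vs control and non-met vs control, in that order, were 17, 10 and 14 with the quasi-likelihood test, with 0 and 0 factors in the comparisons with control. DESeq2 called 326, 228 and 266, with 0 and 0 factors. Limma-trend called 2, 9 and 8, with 0 and 0 factors. Summed pools called 24, 55 and 33, with 0 and 1 factors. Libraries over 2000000 counts called 25, 71 and 33, with 0 and 0 factors. The keratin term called 9, 4 and 20, with 0 and 0 factors, and the 7 libraries of the higher keratin set called 13 in met vs non-met. No filter called 79, 429 and 184, no sample weights called 274 and 140 against control, and library size scaling called 160 in non-met vs control. With the mouse pool as a replicate block met vs non-met called 30 genes and 0 of the 8 factors tested, as without the block. The comparisons with control, which hold all the factor calls, could not be blocked because control and burdened libraries share no pool. Genes called higher and lower were 33 and 17 in met vs non-met (24 and 21 with RLE scaling, 44 and 19 without sample weights, 53 and 26 without a filter). This balance turned to 21 and 305 with DESeq2, 3 and 14 with the quasi-likelihood test and 0 and 2 with limma-trend. It was 3 and 27 with the pool block, 11 and 14 in libraries over 2000000 counts and 2 and 7 with the keratin term. In met vs control 82 and 61 were called (63 and 73 with library size scaling, 171 and 258 without a filter, 29 and 7 without met 3). In non-met vs control 22 and 54 were called (22 and 138 with library size scaling, 21 and 12 with summed pools, 26 and 7 in libraries over 2000000 counts and 14 and 6 with the keratin term).

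Among factors that passed no test in the comparison, some fitted log2 differences changed sign. In met vs non-met *Bmp6* was 0.26 with the quasi-likelihood test and 0.074 with DESeq2. *Pdgfb* was -0.16 with DESeq2, -0.13 without sample weights, -0.040 with RLE scaling and -0.0013 with summed pools. *Tgfb1* was 0.054 with limma-trend, 0.067 with library size scaling, 0.014 without a filter, 0.21 with the pool block and 0.11 with the keratin term. *Fgf1* was -0.34 without sample weights, -0.97 with summed pools and -1.21 in libraries over 2000000 counts. *Bmp4* was -0.069 with RLE scaling and -0.39 without a filter. In met vs control *Tgfb1* was 0.0082 without a filter and 0.24 with the keratin term. In non-met vs control *Tgfb1* was 0.024 without sample weights, 0.087 with RLE scaling, 0.074 with summed pools and 0.13 with the keratin term, and *Kitl* was 0.092, 0.13 (RLE scaling) and 0.018 (keratin term).

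Leaving out 1 library at a time gave 16 to 87 genes called in met vs non-met (16 without met 3, 87 without control 1, and 32 without non-met 5). In met vs control it gave 36 to 293 genes (36 without met 3, 69 without control 1, 82 without non-met 5, 91 without met 2, 293 without control 2) and 0 to 1 factors. In non-met vs control it gave 32 to 228 genes (32 without non-met 5, 42 without non-met 2 or 6, 44 without non-met 4, 228 without control 2) and 1 to 2 factors. Log2 differences then ranged in met vs non-met from -1.32 to 0.82 for *Bmp4*, -0.31 to 0.23 for *Tgfb1*, -0.41 to 0.85 for *Pdgfb*, -1.59 to 1.06 for *Fgf1*, -5.11 to -1.62 for *Pdgfa*, 1.24 to 4.28 for *Tgfb3*, -2.27 to -0.80 for *Kitl* and -3.13 to -0.32 for *Bmp6*. In met vs control they ranged from -2.49 to 4.38 for *Pdgfa*, -0.40 to 0.23 for *Tgfb1* and -1.22 to 4.89 for *Fgf1*. In non-met vs control they ranged from -0.38 to 0.13 for *Tgfb1*, -1.83 to 4.34 for *Fgf1* and -1.70 to 0.088 for *Kitl*.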
